A study of Homo sapiens with 12 samples.

Results

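The S100 genes described here are 10 of the 20030 rows of the deposited FPKM table, taken by gene symbol: S100A1, S100A4, S100A6, S100A8, S100A9, S100A10, S100A11, S100A12, S100A13 and S100P. These members were chosen with levels and fold changes of the same libraries already known, and which of those values decided the choice is not recorded. Their levels and fold changes are therefore given as a description, and the p-values printed beside them, from fits across all genes, are not independent evidence. mRNA-seq was performed in MOLM-13 and THP-1 cells, human acute myeloid leukemia (AML) lines that both carry a rearranged MLL gene. MOLM-13 also carries an internal tandem duplication of FLT3, whereas FLT3 is wild type in THP-1. Each line had 3 control libraries, given the solvent DMSO, and 3 libraries from cells treated with JOA for 48 h, at 0.5 μM in MOLM-13 and 2 μM in THP-1. The time is that of the labels and methods, and a figure legend of the study gives a longer incubation. JOA is Jiyuan oridonin A, an ent-kaurene diterpenoid isolated from Isodon rubescens. Each line is a single established culture, and line and dose differ together, so a difference in response between the lines cannot be told apart from a difference in dose. The study describes its experiments as repeated, and the legend of its sequencing figure speaks of 2 independent experiments. Neither the labels nor the methods say whether the 3 libraries of a group came from separate cultures. The p-values therefore measure only the spread between these libraries, which may be technical.

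S100 proteins are small calcium-binding proteins with EF-hand motifs that mostly act as dimers and expose a binding surface for target proteins when calcium is bound. S100A8 and S100A9 form calprotectin, an abundant cytosolic complex of neutrophils and monocytes that is released as an alarm signal and is recognised by the receptors TLR4 and AGER (RAGE). S100A8, S100A9 and S100A12 accumulate as myeloid cells mature, whereas S100A4, S100A6, S100A10 and S100A11 are made in many cell types, where they bind myosin, annexins and other cytoskeletal or membrane partners.

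In the human annotation (GRCh38, GENCODE), 9 of the 10 members lie on chromosome 1 between 151982915 and 153632039, a span of 1649 kb that runs from S100A10 to S100A1, and S100P lies on chromosome 4 (6693069 to 6697170, plus strand). S100A9 (chr1:153357854-153361027, plus strand) and S100A8 (chr1:153390032-153391188, minus strand) are neighbours in this cluster with S100A12 (chr1:153373706-153375649, minus strand) between them. S100A1 (chr1:153627926-153632039, plus strand) and S100A13 (chr1:153618787-153631360, minus strand) overlap on opposite strands, with 235 exonic bases in common, and whether fragments were assigned by strand is not given in the sources used here. The 250 bases upstream of the start sites of S100A8 and S100A9 are shown because these genes encode the subunits of one complex, varied together across libraries and had a lower ratio to each other in the JOA-treated THP-1 libraries. The sequences are from RefSeq (GRCh38.p14), read 5′ to 3′ on the strand of the gene, and end at the base before the start site. All 10 members had an entry in the RefSeq promoter table. Capitals mark the 2 kinds of motif found in these windows, the TATA box (TATAAA) and the core bound by ETS factors such as PU.1 (GAGGAA, here read on the opposite strand).
S100A8 (chr1:153391189-153391438, minus strand): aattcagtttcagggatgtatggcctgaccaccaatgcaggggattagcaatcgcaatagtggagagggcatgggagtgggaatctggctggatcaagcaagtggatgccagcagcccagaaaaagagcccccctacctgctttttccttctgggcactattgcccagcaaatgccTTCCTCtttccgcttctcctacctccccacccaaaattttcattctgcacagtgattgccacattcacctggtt
S100A9 (chr1:153357604-153357853, plus strand): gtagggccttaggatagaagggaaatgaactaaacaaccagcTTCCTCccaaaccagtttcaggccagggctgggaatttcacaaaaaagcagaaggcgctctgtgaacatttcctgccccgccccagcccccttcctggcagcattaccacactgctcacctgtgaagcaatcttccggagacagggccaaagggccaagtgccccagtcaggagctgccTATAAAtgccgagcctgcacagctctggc
Both windows held GAGGAA on the strand opposite to the gene, from base -74 to -69 of S100A8 and from -208 to -203 of S100A9, counted back from the start site. This motif was found in 2 of the 10 members and in 23.6% of the 35116 windows of the same length in the table. TATAAA occurred from -29 to -24 in S100A9 and was not among the letters of the S100A8 window. It occurred in 4 of the 10 members (S100A4, S100A9, S100A12 and S100P) and in 10.7% of all windows. The C/EBP core TTGCNNAA was present in S100A11 and S100A12 (9.05% of all windows), the AP-1 motif TGANTCA in S100A12 (6.57%) and the antioxidant response element core TGACNNNGC in S100A13 (10.9%). Both strands were searched, the motif sets do not overlap in these windows, and a match of letters is a description and not a binding site.

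The unit of all levels is FPKM, the fragment count of a gene scaled by its exon length and by the size of the library, which can be compared between genes. FPKM carry no fragment counts, so depth is unknown and no counting interval is given. The libraries of a line had rank correlations of 0.987 to 0.997 with one another, and no library was excluded. Of 10 myeloid markers, 9 had a mean of at least 1 FPKM in each of the 4 groups. The exception was CD14, a monocyte co-receptor, with means of 0.144 FPKM in control MOLM-13 and 0.548 FPKM in control THP-1. The myeloid markers summed to 1002 to 3528 FPKM per library. LYZ made up most of this sum, with group means of 895 to 2809 FPKM, and CD68 came next with 57.4 to 168 FPKM. The 17 markers of other cell types summed to 3.55 to 6.25 FPKM in control and 3.62 to 3.91 FPKM in JOA-treated MOLM-13 libraries, and to 1.84 to 5.17 and 1.65 to 2.47 FPKM in THP-1, with HBB and PF4 at 0 in all 12 libraries. The highest of them were KRT8 (1.62 and 1.85 FPKM in the control groups of MOLM-13 and THP-1) and CD3D (2.83 FPKM in control MOLM-13, listed at 0 in THP-1), and their part in the results was not tested.

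The family was led by a few abundant genes, and its total was higher in THP-1. The 10 members summed to 439, 426 and 455 FPKM in the control MOLM-13 libraries 1 to 3 and to 1261, 1031 and 1092 FPKM in the control THP-1 libraries. After JOA the sums were 522, 455 and 439 FPKM in MOLM-13 and 1466, 1069 and 1187 FPKM in THP-1. The ranges of control and JOA libraries overlapped in both lines, and each THP-1 JOA library was above the control of the same number. In control MOLM-13 cells S100A4 (165 ± 15.6 FPKM, SD, n = 3) and S100A11 (151 ± 11.3) led, and their ranges overlapped. S100A10, S100A6, S100A9 and S100A8 followed, in that order and with ranges apart. S100P (1.14 ± 0.844 FPKM) and S100A13 (0.706 ± 0.146) did not differ beyond their spread, and S100A1 and S100A12 were lowest. In control THP-1 cells the order was S100A11 (452 ± 11.2 FPKM), S100A9 (304 ± 69.5), S100A4 (158 ± 8.62) and S100A6 (102 ± 10.9), each with its range apart from the next. S100A8 and S100A10 then overlapped, S100P stood apart at 12.1 ± 3.68 FPKM, and S100A13, S100A1 and S100A12 overlapped near 1 FPKM. With JOA the order of means was the same in both lines, except that S100A10 and S100A8 changed places in THP-1 and S100A12 and S100A1 changed places in both. In control MOLM-13 the ranges of S100A1 (0.137 to 0.164 FPKM) and S100A12 (0 to 0.134 FPKM) were apart. The ranges of these pairs otherwise overlapped. S100A8 and S100A9 together made up 4.07% to 6.63% of the family's FPKM in control MOLM-13 and 28.8% to 36.6% in control THP-1.

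**Figure D1:**
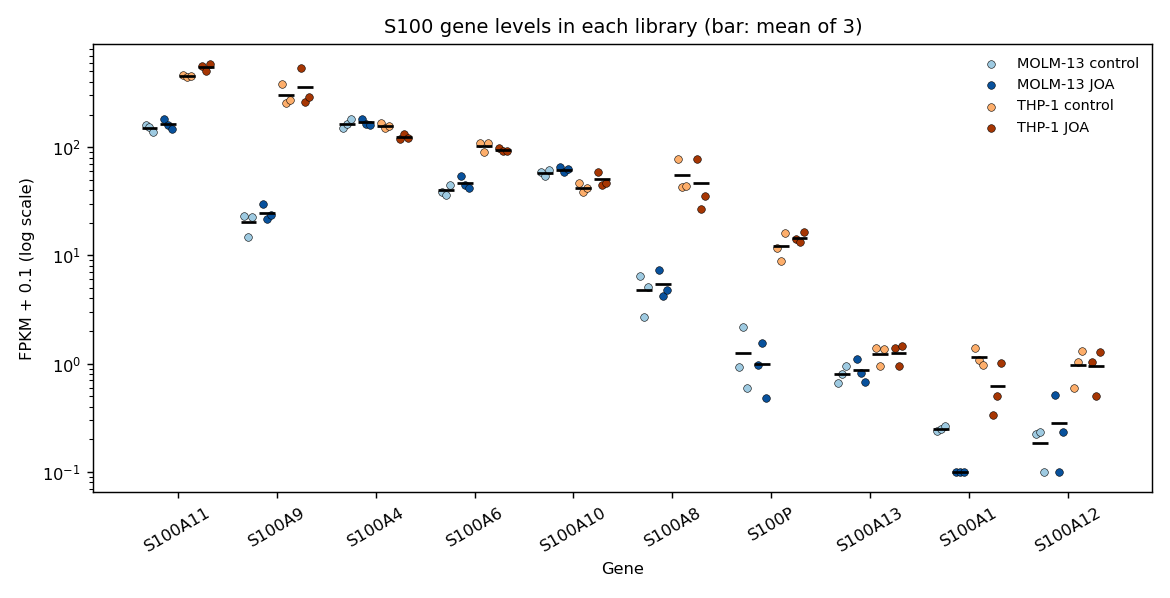
FPKM + 0.1 on a log axis for the 10 S100 genes in each of the 12 libraries, with a bar at the mean of the 3 libraries of a group. S100A9, S100A8 and S100P sit far higher in THP-1 than in MOLM-13, S100A4 overlaps between the control groups, S100A10 is lower in THP-1 controls, and S100A1 lies on the floor (0 FPKM) in all 3 JOA-treated MOLM-13 libraries.

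The comparison of the untreated lines asked how much of each S100 mRNA the 2 leukemias carry before treatment. A gene was called when the Benjamini-Hochberg adjusted p of limma, over all genes tested, was under 0.05 and the log2 fold change of FPKM + 0.1 was at least 0.58 in size. By this rule 8 of 10 members were called, all of them higher in THP-1, against 44.0% of all 12635 genes tested. S100A12 among them averaged 0.0855 FPKM in control MOLM-13, and reached the mean of 0.1 FPKM needed for testing only through THP-1. The groups did not overlap for 7 members that were higher and for 1 that was lower in THP-1, against 74.8% of all genes. The median log2 fold change was 1.88 over the members and 0.06 over all genes tested. The comparisons with JOA asked which S100 mRNAs change with treatment. In MOLM-13, 9 of 10 members passed the filter of a mean of at least 0.1 FPKM and 0 were called, against 0% of 11693 genes, also 0% with the replicate number as a block. In the fit without the block, none of the 9 had an unadjusted p under 0.05 (4.11% of all genes). With the block, the unadjusted limma p was under 0.05 for S100A9 (0.00655) and S100A10 (0.0451), and for 1295 of the 11693 genes. In none of the 9 did control and JOA libraries fail to overlap (9.65% of all genes). In THP-1, all 10 members were tested and 0 were called, against 0.134% of 12712 genes, and 0 were called with the replicate block, against 1.27%. Without the fold threshold, 0 of 10 members had an adjusted p under 0.05 (0.299% of all genes), and 3 of 10 did in the fit with the replicate block (8.06% of all genes). An unadjusted p under 0.05 was seen for 3 of 10 members in the fit without the block (16.9% of all genes). Control and JOA libraries were apart for 2 of 10 members in THP-1, S100A11 higher and S100A4 lower, against 23.4% of all genes. The median log2 fold change over the members tested was 0.11 in MOLM-13 and -0.04 in THP-1, with 0.01 and 0.02 over all genes tested.

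**Figure D2:**
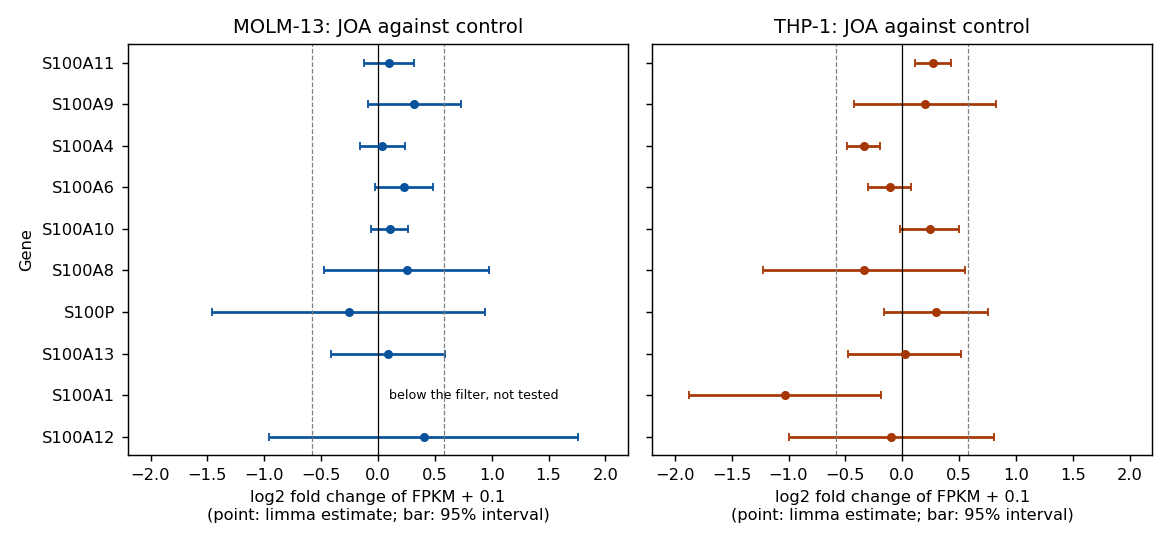
Log2 fold change of FPKM + 0.1 with JOA for each S100 gene in MOLM-13 (left) and THP-1 (right), with the limma estimate as a point, its 95% interval as a bar and dashed lines at the fold threshold of 0.58. The intervals of S100A11 (above 0), S100A4 and S100A1 (below 0) leave out 0 in THP-1, and S100A1 was not tested in MOLM-13.

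The myeloid S100 genes S100A8 and S100A9 were called higher in THP-1, with log2 fold changes that S100P matched within its error. S100A9, the calprotectin subunit that is the more abundant mRNA here, was at 22.8, 14.8 and 22.6 FPKM in control MOLM-13 libraries 1 to 3 and at 384, 258 and 271 FPKM in control THP-1. S100A8, its partner subunit, was at 6.30, 2.59 and 5.05 FPKM in control MOLM-13 and at 77.9, 42.4 and 43.9 FPKM in control THP-1. Every THP-1 library was above every MOLM-13 library for both genes. The log2 fold change between the lines was 3.92 (SE 0.20, limma adjusted p = 8.15e-07) for S100A9 and 3.56 (SE 0.34, adjusted p = 2.81e-05) for S100A8. With JOA, S100A9 was at 537, 260 and 290 FPKM in THP-1 and at 29.5, 21.5 and 23.4 FPKM in MOLM-13. Its value was above the same-numbered control in all 3 pairs of both lines, but the groups overlapped. The log2 fold change of S100A9 was 0.20 (SE 0.27, limma adjusted p = 0.762) in THP-1 and 0.32 (SE 0.18, adjusted p = 1.00) in MOLM-13. With the replicate block the estimates were the same, with SE 0.09 in each line and limma adjusted p = 0.198 in THP-1 and 0.350 in MOLM-13. THP-1 replicate 1 held the highest S100A8 and S100A9 of its group in control and JOA alike, and without the JOA library of replicate 1 the log2 fold change of S100A9 turned to -0.12. S100A8 with JOA was at 76.8, 26.8 and 35.0 FPKM in THP-1, below its same-numbered control in 3 of 3 pairs, and at 7.27, 4.11 and 4.74 FPKM in MOLM-13. The groups overlapped in both lines. Its log2 fold change was -0.34 (SE 0.38, limma adjusted p = 0.709, and 0.0957 with the replicate block) in THP-1 and 0.25 (SE 0.32, adjusted p = 1.00) in MOLM-13. The THP-1 value rested on single libraries, since it was -0.05 without control replicate 1, -0.02 without JOA replicate 2 and -0.78 without JOA replicate 1.

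The ratio of S100A8 to S100A9 puts the subunits of the complex on one scale within each library. In THP-1 it was 0.203, 0.164 and 0.162 in control libraries 1 to 3 and 0.143, 0.103 and 0.121 in the JOA libraries. All 3 JOA libraries lay below all 3 controls, and the ratio was lower in 3 of 3 same-numbered pairs. The mean ratio was 0.176 ± 0.0229 (SD, n = 3) in control and 0.122 ± 0.0201 in JOA-treated THP-1 cells, a log2 difference of -0.53 (exact two-sided permutation p = 0.1, the smallest that 3 libraries against 3 can give). In MOLM-13 the ratio was 0.277, 0.176 and 0.224 in control and 0.247, 0.192 and 0.202 in JOA libraries, and the groups overlapped (log2 difference -0.06, exact permutation p = 0.8). The log2 change of the ratio per pair was between -0.67 and -0.42 in THP-1 and between -0.17 and 0.12 in MOLM-13. The lines differed by -0.47 in this change (exact permutation p = 0.1 over 3 pairs against 3, again the smallest possible), a test chosen after the values were seen.

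**Figure D3:**
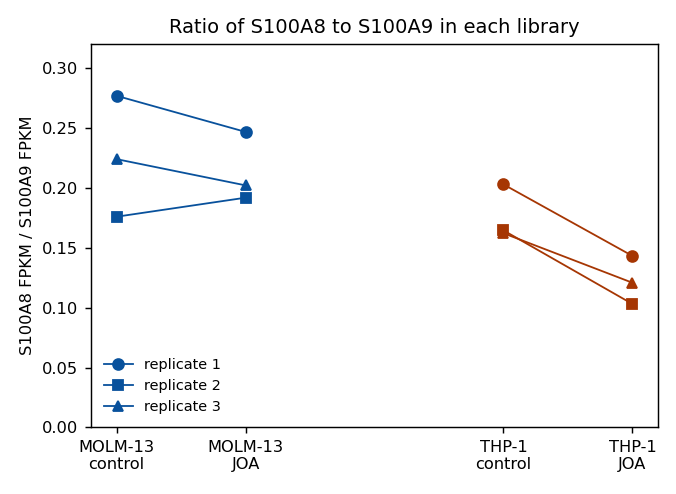
Ratio of S100A8 FPKM to S100A9 FPKM in each library, with lines joining same-numbered control and JOA libraries. The 3 THP-1 JOA libraries (0.103 to 0.143) lie below the 3 THP-1 controls (0.162 to 0.203), and the MOLM-13 groups overlap.

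S100A12, the third calgranulin of myeloid cells and a ligand of AGER, was barely present. It was at 0.122, 0.134 and 0 FPKM in control and 0.413, 0 and 0.135 FPKM in JOA-treated MOLM-13, and at 0.502, 0.941 and 1.20 FPKM in control and 0.932, 0.405 and 1.19 FPKM in JOA-treated THP-1. It was called between the lines (log2 fold change 2.43, SE 0.39, limma adjusted p = 0.000634), and the control and JOA libraries overlapped in both lines. Its control MOLM-13 mean (0.0855 FPKM) was under 0.1 FPKM, so it was tested only through its THP-1 level. The call is given as a description, and the size of the fold change depends on the 0.1 added to each value. After correction for the relative depth of the libraries, the MOLM-13 values were 1.01, 1.02 and 0 times the smallest value above 0 in control and 3.08, 0 and 1 times in JOA, each within 0.15 of a whole number. The 0 values and the smallest value are whole by construction. In THP-1 the same multiples lay up to 0.343 from a whole number.

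Among the annexin-binding members, S100A11 was the most abundant S100 mRNA in THP-1, and S100A10 was the one member whose control groups were apart with THP-1 lower. S100A11, which binds annexins such as ANXA1, was at 161, 154 and 139 FPKM in control MOLM-13 and at 464, 441 and 450 FPKM in control THP-1 (log2 fold change 1.58, SE 0.07, limma adjusted p = 4.49e-07). With JOA it was at 558, 500 and 581 FPKM in THP-1. All 3 of these exceeded all 3 controls. The log2 fold change was 0.27 (SE 0.07, limma adjusted p = 0.112, and 0.0247 with the replicate block), under the fold threshold. In MOLM-13 S100A11 with JOA was at 182, 159 and 146 FPKM, above its control in 3 of 3 pairs with overlapping groups (log2 fold change 0.10, SE 0.09, limma adjusted p = 1.00). S100A10, the calcium-independent partner of annexin A2 at the membrane, was at 58.3, 53.5 and 61.0 FPKM in control MOLM-13 and at 46.3, 38.6 and 41.6 FPKM in control THP-1. The log2 difference between the lines was -0.45 (SE 0.08, limma adjusted p = 0.00127), under the fold threshold. With JOA, S100A10 was at 59.2, 44.3 and 47.0 FPKM in THP-1 and at 65.0, 58.3 and 62.5 FPKM in MOLM-13. It was above its control in 3 of 3 pairs of each line, and the groups overlapped in each. The log2 fold change was 0.24 (SE 0.11, limma adjusted p = 0.331, and 0.0292 with the replicate block) in THP-1, where it was 0.12 without JOA replicate 1, and 0.11 (SE 0.07, adjusted p = 1.00) in MOLM-13. The ratio of S100A10 to ANXA2 was 2.99 ± 0.336 (SD, n = 3) in control and 3.22 ± 0.0966 in JOA-treated MOLM-13 (exact permutation p = 0.5), and 1.88 ± 0.283 and 2.09 ± 0.165 in THP-1 (exact permutation p = 0.3). These ratios overlapped between control and JOA in both lines.

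S100A6 (calcyclin), which binds annexins and CACYBP, was at 38.6, 35.7 and 44.9 FPKM in control MOLM-13 and at 108, 89.6 and 109 FPKM in control THP-1. It was called higher in THP-1 (log2 fold change 1.36, SE 0.11, limma adjusted p = 9.02e-06). With JOA it was at 53.4, 45.0 and 41.7 FPKM in MOLM-13 and at 98.5, 91.4 and 92.6 FPKM in THP-1. The groups overlapped in both lines, with log2 fold changes of 0.23 (SE 0.11, limma adjusted p = 1.00) in MOLM-13 and -0.11 (SE 0.08, adjusted p = 0.527) in THP-1.

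S100A4, which binds non-muscle myosin (MYH9) and is known for its role in cell motility, was alike in level in the untreated lines. It was at 150, 162 and 181 FPKM in control MOLM-13 and at 167, 149 and 157 FPKM in control THP-1. The groups overlapped, and the log2 difference was -0.06 (95% interval -0.25 to 0.13, limma adjusted p = 0.538), which turned to 0.02 when the libraries were rescaled to equal totals (TPM) and to 0.01 without MOLM-13 control replicate 3. With JOA, S100A4 was at 120, 133 and 121 FPKM in THP-1, and each JOA library was below each control. The means were 158 ± 8.62 FPKM (SD, n = 3) in control and 124 ± 7.17 FPKM in JOA-treated THP-1 cells. The log2 fold change was -0.34 (SE 0.06, limma adjusted p = 0.0727, and 0.0221 with the replicate block), under the fold threshold. In JOA-treated MOLM-13 cells S100A4 was at 182, 165 and 159 FPKM, within the range of its controls but for replicate 1 (log2 fold change 0.04, SE 0.09, limma adjusted p = 1.00).

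**Figure D4:**
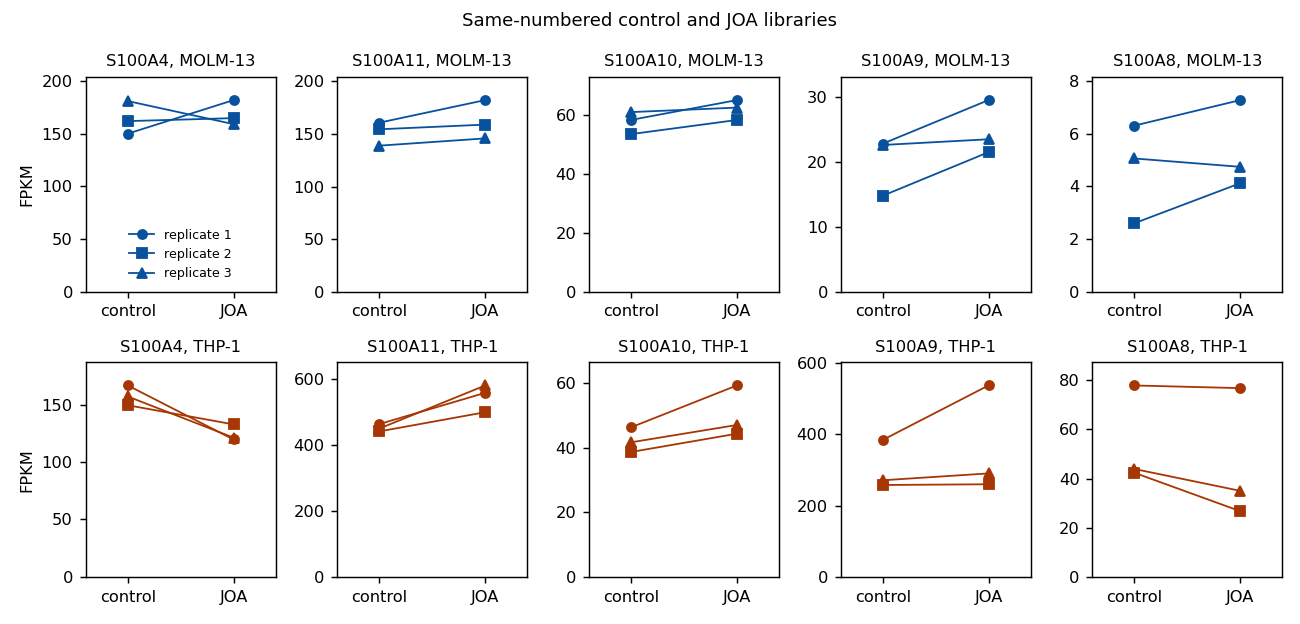
FPKM of S100A4, S100A11, S100A10, S100A9 and S100A8 in control and JOA libraries of MOLM-13 (top) and THP-1 (bottom), with lines joining same-numbered libraries and each axis starting at 0. In THP-1 all 3 lines go down for S100A4 and S100A8 and up for S100A11, S100A10 and S100A9, and replicate 1 is the highest for S100A8 and S100A9 in both groups.

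S100P, which binds ezrin (EZR) and AGER, was at 0.839, 2.10 and 0.493 FPKM in control MOLM-13 and at 11.6, 8.74 and 16.04 FPKM in control THP-1. The THP-1 libraries were all higher (log2 fold change 3.47, SE 0.44, limma adjusted p = 0.000149). With JOA it was at 0.871, 1.44 and 0.379 FPKM in MOLM-13 and at 13.98, 13.1 and 16.5 FPKM in THP-1. The THP-1 value was above its control in 3 of 3 pairs with overlapping groups (log2 fold change 0.30, SE 0.20, limma adjusted p = 0.498, and 0.0989 with the replicate block). The MOLM-13 log2 fold change was -0.26 (SE 0.53, adjusted p = 1.00).

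S100A1 and S100A13, the antisense pair, were low in both lines. S100A13, which takes part in the release of FGF1, was at 0.561, 0.705 and 0.852 FPKM in control and 1.01, 0.717 and 0.571 FPKM in JOA-treated MOLM-13. In THP-1 it was at 1.31, 0.852 and 1.25 FPKM in control and 1.30, 0.842 and 1.34 FPKM with JOA. It was called between the lines (log2 fold change 0.61, SE 0.20, limma adjusted p = 0.0231) although the ranges overlapped narrowly, and the call was lost on leaving out control replicate 1 or 2 of MOLM-13 or control replicate 1 or 3 of THP-1 (adjusted p = 0.0502 to 0.0779). S100A1, known as a regulator of calcium handling in striated muscle, was at 0.137, 0.150 and 0.164 FPKM in control MOLM-13 and was listed at 0 in all 3 JOA libraries. Corrected for relative depth, the 3 control values were 1, 1.00 and 1.08 times the smallest of them, so each may be a single step of the table. In THP-1 the same multiples of S100A1 lay up to 0.36 from a whole number. The MOLM-13 mean was below the filter, so S100A1 was not tested in MOLM-13. With no filter on low values it was called (limma adjusted p = 0.0195), the 1 gene called of 15403 (0.00649%). In THP-1 S100A1 was at 1.29, 0.976 and 0.873 FPKM in control and 0.239, 0.398 and 0.909 FPKM with JOA. It was lower in 2 of 3 pairs, and the groups overlapped because of JOA replicate 3 (log2 fold change -1.03, SE 0.36, limma adjusted p = 0.216, and 0.111 with the replicate block). Between the untreated lines S100A1 was called higher in THP-1 (log2 fold change 2.18, SE 0.17, limma adjusted p = 9.73e-06). Its control MOLM-13 mean (0.151 FPKM) was close to the 0.1 added to each value, so the size of this fold change depends on that addition. Fragments of S100A1 and S100A13 cannot be told apart in the shared exonic bases unless strand was used.

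The response to JOA was then compared between the lines by the interaction of line and treatment in one limma fit. Of the 10 members, 0 had an adjusted p under 0.05, against 0% of 12626 genes tested, and 0 with the replicate block, against 0.0475%. In the fit without the block, an unadjusted p under 0.05 was seen for 2 members (7.24% of all genes), S100A4 and S100A6. Both had a THP-1 response below that of MOLM-13. With the block, the unadjusted limma p was also under 0.05 for S100A8 (0.0180), again with the lower response in THP-1. The same held for S100P (0.0126) and S100A11 (0.0326), both with the higher response in THP-1. Over all genes it was under 0.05 for 1883 of 12626. Without the block, the difference of log2 fold changes was -0.38 (SE 0.11, limma adjusted p = 0.481) for S100A4 and -0.34 (SE 0.15, adjusted p = 0.663) for S100A6. For S100A11 it was 0.17 (95% interval -0.09 to 0.44) and for S100A9 -0.12 (-0.93 to 0.68).

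Some members varied together from library to library within a line. S100A8 and S100A9 had a Pearson correlation of 0.94 over the 6 MOLM-13 libraries and 0.841 over the 6 THP-1 libraries. S100A9 and S100A10 gave 0.947 and 0.901, and S100A4 and S100A11 gave 0.116 and -0.903. The rank correlations in MOLM-13 and THP-1 were 0.829 and 0.657 for S100A8 with S100A9 and 0.943 and 0.886 for S100A9 with S100A10. For S100A4 with S100A11 they were 0.0857 and -0.714. These libraries share their line and include treated and control samples, so the values are given as a description. The gene outside the members whose log2 level, centred within each line, was most like each abundant member over the 12 libraries was chosen from 9233 genes. It was NDUFB1 for S100A4 (Pearson r = 0.939), PGAP3 for S100A6 (0.815), MAP3K6 for S100A8 (0.892), METTL3 for S100A9 (0.911), CLN3 for S100A10 (0.918), CTBS for S100A11 (0.947) and ZC3H4 for S100P (0.886). Each is the highest of many correlations.

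The 11 other S100 genes of the list were at or near 0. Their sum was 0.172 to 0.778 FPKM per library, and S100A7A, S100A7L2, S100A14, S100G and S100Z were listed at 0 in all libraries. The highest in mean level was S100A16, at 0.156 FPKM in control MOLM-13 and 0.307 FPKM in control THP-1, next to the lowest members S100A12 (0.0855 and 0.882 FPKM) and S100A1 (0.151 and 1.05 FPKM). S100A2 and S100A3 had group means of at most 0.195 and 0.152 FPKM. None of the tested ones (1 in MOLM-13, 2 in THP-1 and 2 between the lines) was called. Of 7 fused-type S100 genes, which encode large proteins of the skin barrier, only TCHH passed the filter in any fit. It was higher in control THP-1 (0.960 FPKM) than in control MOLM-13 (0.080 FPKM), with a log2 fold change of 2.56 (limma adjusted p = 1.41e-06). In control MOLM-13 it was under 0.1 FPKM, so it was tested between the lines only through THP-1.

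Of 11 receptors and co-receptors of S100 proteins, 9 were tested in MOLM-13 and 10 in THP-1, and 0 were called with JOA in either line. The most abundant, BSG, a receptor of S100A9, was at 207 FPKM in control MOLM-13 and 253 FPKM in control THP-1. TLR4 was at 2.79 and 4.25 FPKM, AGER at 0.992 and 0.998 FPKM, and CD36 at 5.65 and 5.09 FPKM. Between the untreated lines 4 were called higher in THP-1, ALCAM (log2 fold change 1.61), NPTN (1.16), CD14 (1.34) and MCAM (0.67). Lower were 2, CD33 (-1.87) and LY96 (-0.86), and 44.0% of all genes tested were called. The control groups overlapped for CD14 and LY96, and MCAM, LY96 and CD14 were low, with control means of 0.110 to 0.548 FPKM. Of 16 intracellular partners, 13 were tested and 0 were called with JOA. With the replicate block 1 of 13 was called in THP-1, against 1.27% of all genes. It was ANXA1, an annexin that S100A11 binds, at 14.01 FPKM in control and 21.9 FPKM with JOA. Its log2 fold change was 0.64 (SE 0.16, limma adjusted p = 0.117, and 0.00602 with the block). MYH9 (74.3 and 69.1 FPKM in control MOLM-13 and THP-1), CACYBP (41.8 and 60.1 FPKM), IQGAP1 (40.8 and 49.3 FPKM) and ANXA2 (19.5 and 22.7 FPKM) were not called in any of these fits. Between the lines 3 of the 13 partners tested were called higher in THP-1, ANXA6 (log2 fold change 3.70), ANXA1 (0.96) and EZR (0.76). Another 2 were called lower, of which AHNAK (-1.25) is named here, and 44.0% of all genes tested were called. All 11 myeloid transcription factors were tested and 0 were called with JOA in either line. Between the untreated lines 4 of the 11 were called higher in THP-1, CEBPE (2.07), KLF4 (0.86), CEBPB (0.66) and STAT3 (0.63), on the log2 scale. CEBPD (-0.84) was the 1 called lower, and the share called was 44.0% over all genes tested. CEBPA, IRF8, SPI1 and GFI1, the most abundant of the rest, were not called in any fit. Among the myeloid markers 0 were called with JOA. With the block ITGAM (log2 fold change 0.71, limma adjusted p = 0.0348) was called higher and MPO (-0.64, adjusted p = 0.00659) lower in THP-1, against 1.27% of all genes. Between the lines 4 markers (CSF1R, CD68, FCGR1A and CD14) were called higher and 2 (LYZ and CD33) lower in THP-1, against 44.0% of all genes tested. Of the 17 markers of other cell types 0 were called with JOA. Between the lines 4 of the 6 tested were called, against 44.0% of all genes. CD79A (log2 fold change 1.71), COL1A1 (1.33) and ITGA2B (1.20) were higher and CD3D (-4.78) lower in THP-1. COL1A1 (0.0923 FPKM) and ITGA2B (0.0232 FPKM) in control MOLM-13 and CD3D (0 FPKM) in control THP-1 were below 0.1 FPKM. They passed the filter only through the other line.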

How the data were processed

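mRNA libraries (TruSeq Stranded, paired-end, HiSeq X10) came from 12 samples. The submitters' processing notes name Trimmomatic, HISAT2, Cufflinks, HTSeq and hg38, while versions, annotation and strand setting are not given in the sources used here. The authors deposited FPKM per gene, with 3488 of 20030 rows at 0 throughout and 27 symbols turned into dates. The authors' test needs counts and was not run. log2(FPKM + 0.1) was tested with limma 3.58.1 (R 4.3.3, trend, Benjamini-Hochberg over all genes with a mean of at least 0.1 FPKM), within each line, between control lines and as an interaction. Ratios were tested by exact permutation (scipy 1.17.1). Fits were checked on simulated data. Members and lists (other S100 and fused-type genes, receptors, partners, transcription factors, markers) were chosen with earlier results of these data known. All members are named. From each list, genes called in any fit and up to 4 others with the highest mean are named, except for a few that are not reported here. Pairing by replicate number was checked as the correlation of deviations from group means. For same numbers it was 0.264 to 0.398 in MOLM-13 and 0.139 to 0.319 in THP-1. The numbers were therefore taken to pair libraries, but only the replicate block, the sign-flip test and the per-pair values use this. The main fits and the permutation tests of ratios within a line leave the pairing out. Alternatives were the pseudocount, filter, scaling, trend, replicate block, one common fit and leaving out each library. Relative depth came from the commonest ratio of low values between libraries of a line.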

Additional observations from a re-analysis of the deposited data

Results flagged for a closer look

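S100B, an S100 gene outside the 10 members, had control and JOA libraries apart in opposite directions in the 2 lines. It was at 0.0328, 0.143 and 0.112 FPKM in control and 0.330, 0.293 and 0.182 FPKM in JOA-treated MOLM-13. In THP-1 it was at 0.104, 0.129 and 0.109 FPKM in control and 0, 0.0370 and 0 FPKM with JOA. The difference of the log2 fold changes (THP-1 minus MOLM-13) was -1.88 (limma adjusted p = 0.326, and 0.0762 with the replicate block). S100B was flagged by the libraries being apart, so this difference restates that pattern and is given as a description. Its size depends on the 0.1 added to each value. S100B passed the filter of the interaction through JOA-treated MOLM-13 (mean 0.268 FPKM), and was below the filter and not tested in THP-1 alone. The FPKM values of S100B lie between 0 and 9 steps of the table after correction for relative depth, each within 0.15 of a whole number. The 0 values and the smallest value above 0 of each line are whole by construction.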

How the results depend on the processing

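Of the counts of members called, 1 in MOLM-13 (S100A1, with no filter) and 5 between the control lines (filter of a mean of at least 1 FPKM, which leaves 3 called members untested) moved by over 1.5 times. Leaving out each library in turn gave 7 to 8 called between the lines and 0 in the other comparisons. The replicate block changed no call of a member, and left the S100A8 to S100A9 ratio in THP-1 at -0.53 (exact sign-flip p = 0.25, the smallest that 3 pairs allow). Signs turned for S100A13 in THP-1 (-0.0063, median-of-ratios scaling), S100A4 between the lines (0.0242, TPM) and S100A1 in the interaction (-0.25, pseudocount 1). With each library left out in turn, log2 values spanned both signs in MOLM-13 for S100A4 (-0.0246 to 0.11), S100A8 (-0.11 to 0.51), S100A13 (-0.11 to 0.26), S100P (-0.68 to 0.26) and the S100A8 to S100A9 ratio (-0.23 to 0.0967). They did so in THP-1 for S100A9 (-0.12 to 0.40), S100A12 (-0.41 to 0.30) and S100A13 (-0.16 to 0.22), between the lines for S100A4 (-0.12 to 0.0131), and in the interaction for S100A1 (-0.14 to 0.65), S100A9 (-0.45 to 0.0821), S100A12 (-1.10 to 0.0826) and S100A13 (-0.25 to 0.13). None of these was called in the main comparison, and the cause was not tested. Over all genes, the 17 called in THP-1 became 161 with the replicate block, 51 with one common fit, 8 with pseudocount 1, 1 without a trend, 0 with no filter and 0 to 1 without a library, and the 0 of the interaction became 6 with the block, 3 with no filter and 1 with pseudocount 1. For single members, 317 of the values under other settings and 264 of those without a library kept direction and side of the threshold. FPKM without counts leave the precision of low genes unknown.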
